A study of Homo sapiens with 9 samples.

Results

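The QKI-5 peaks described are those in the 3′UTRs of protein-coding genes, the stretch of an mRNA between the stop codon and the 3′ end. A peak was counted when its centre fell, on its own strand, in an exon part after the stop codon of a basic protein-coding transcript of GENCODE release 44, and in no coding sequence of such a transcript. Of the 24037 peaks in the list, 24019 lay on nuclear chromosomes, and 1710 of these met the rule (7.12%, 95% Wilson interval 6.80 to 7.45%). Introns of coding genes held 17761 peaks, coding sequence held 526, and the other 4022 lay elsewhere.

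The peaks came from HITS-CLIP, in which ultraviolet light fixes RNA to the proteins bound to it inside living cells, and the RNA fragments that an antibody pulls down with its protein are sequenced. The cells were mesHMLE, a mesenchymal line that arose from the HMLE human mammary epithelial line under prolonged TGF-β1 and was kept without further TGF-β1; GEO's labels give breast cancer as the cell type. An antibody specific to QKI-5 gave 7 libraries, 3 cut from a gel at the size of a QKI monomer and 4 at that of a presumptive dimer (1 of these with SuperScript IV), and 2 size-matched input libraries served as controls. All libraries were technical replicates that the authors pooled before calling peaks, so that no value below has a spread between replicates, the depth of each library is unknown, and intervals cover counting error only.

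QKI is an RNA-binding protein of the STAR family. It recognises the hexamer ACUAAC or ACUAAU in RNA, written ACTAAC or ACTAAT in the genome, often beside a shorter UAAC or UAAU element. QKI-5 is the isoform that stays mainly in the nucleus, where it acts on splicing and on the formation of circular RNAs. In 3′UTRs, QKI proteins are known to influence the stability, translation and localisation of mRNAs. These peaks show where QKI-5 was crosslinked and do not measure any such effect.

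The sites in the tallest 3′UTR peaks with ACTAAC show the element in its context. Each is given as 30 bases on the strand of the mRNA, with the most central copy of the hexamer in capitals; positions are on hg19, and the first base of a chromosome is counted as 1. The site in PLEC, whose peak of 646 came after that of TASOR in height, is not printed here.
TASOR (chr3:56655026-56655055, minus strand): cacgcctggctaACTAACtaactaactttt
DVL3 (chr3:183889042-183889071, plus strand): tcatctgcccctACTAACcatccccctgcc
DVL3 (chr3:183889254-183889283, plus strand): acccctaaccctACTAACcagcaggctcat
SIAE (chr11:124506413-124506442, minus strand): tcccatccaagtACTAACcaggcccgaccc
MYL6 (chr12:56554959-56554988, plus strand): tttgggtgggggACTAACagctgctgggag
BICD2 (chr9:95477372-95477401, minus strand): tgcttcacctcaACTAACccagcagcagcg
HNRNPK (chr9:86584064-86584093, minus strand): gggcgtgcaaaaACTAACattgaaattttg
PEA15 (chr1:160183366-160183395, plus strand): atctacccacttACTAACctggtcctaacc
ERH (chr14:69846927-69846956, minus strand): taacattcacatACTAACccttcttcaaga
The letters around the hexamer differed from gene to gene, and in TASOR it was repeated head to tail. Over the most central copy in each of the 148 peaks with ACTAAC, the letter after it was C in 39.9%, A in 37.2%, T in 18.2% and G in 4.73%. The 3′UTRs of all genes with a 3′UTR peak, with or without ACTAAC in it, held 559 sites that were in no peak. Over these sites, each of them counted, the letter was C in 25%, A in 35.8%, T in 33.8% and G in 5.37%.

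The 3′UTR peaks were mostly narrow and low, with a long upper tail. The middle peak by width spanned 60 nt and the quartiles were 48 and 79 nt, where intronic peaks had a median of 61 nt. Their height, a whole number that the authors wrote for each peak of the pooled libraries, had quartiles at 18, 25 and 43.8. Intronic peaks had quartiles at 18, 23 and 31, and coding sequence peaks at 17, 23 and 32. A height of 100 or more was reached by 133 of the 3′UTR peaks (7.78%), by 2.45% of the intronic peaks and by 2.85% of the coding sequence peaks. Height rises with the amount of an RNA in the cells as well as with the share of it that is bound, and the list gives no RNA level, so these cannot be told apart.

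The hexamer ACTAAC was found in 148 of the 1710 peaks (8.65%, interval 7.41 to 10.1%), read on the strand of the peak. It occurred in 0.694% of all windows of 60 nt laid end to end over the 3′UTRs of coding genes, and in 0.990% of those over the 3′UTRs of the genes that had a peak. Windows of the same length were also taken 200 nt away from each peak, where that place was still 3′UTR and free of peaks. Among 1172 peaks with a window on the 5′ side, 7.25% held ACTAAC, against 1.45% of the windows. The hexamer was in the peak alone in 83 pairs and in the window alone in 15 (p = 1.4e-12, exact McNemar test, two-sided). Among 1236 peaks with a window on the 3′ side, the shares were 7.77% and 1.29%, with 95 pairs against 15 (p = 2.14e-15, same exact test). Both differences kept their direction and their p under 0.05 with windows 100 and 500 nt away, with merged peaks, with 1 peak per gene and with the wider motif.

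Counting ACTAAT as well raised the share of peaks with an element to 11.9%, against 3.50% of the 5′ windows and 2.43% of the 3′ windows. The short element TAAC or TAAT occurred in 38.2% of peaks, 37.2% of the 5′ windows and 31.0% of the 3′ windows, shares that lay much closer together. Among the 2060 hexamers found in at least 17 peaks cut to 60 nt around their centres, ACTAAC was the most enriched over those windows, 7.43 times as frequent in the peaks. The next in order, GAGTGC at 5.41 times, belongs to the repeat described below. Without the peaks that held the exact 12-letter run described there, ACTAAC ranked first at 7.88, CTAACC second at 5.21 and CTAACA sixth at 4.64, both of which overlap it. GC-rich hexamers stood between them and after them, GACGGG at 4.90, GGCGGG at 4.81 and GGCCGA at 4.74; other stretches of Alu elements can remain in these peaks, since only the 1 run was used to leave peaks out.

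**Figure D1:**
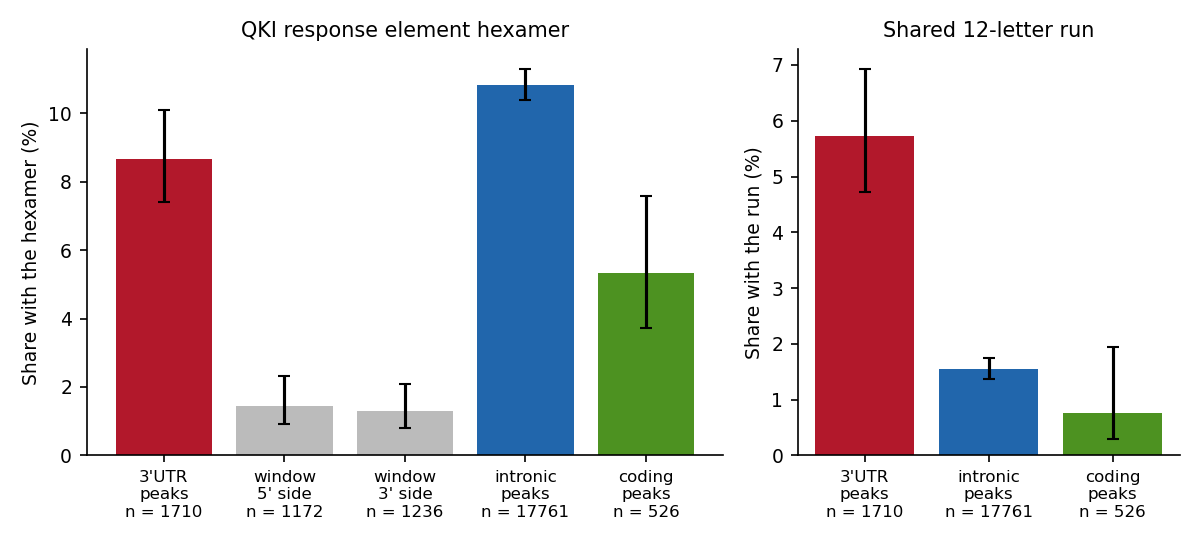
Left, share of peaks or windows (%) that hold the ACTAAC hexamer in 3′UTR peaks, in same-length windows 200 nt to their 5′ and 3′ sides, and in intronic and coding sequence peaks. Right, share (%) with the shared run of 12 letters in the 3 classes of peaks. Bars are shares, error bars 95% Wilson intervals and n the number of peaks or windows. The hexamer stands at 8.65% in 3′UTR peaks and below 2% in both sets of windows, and the run is most frequent in 3′UTR peaks, at 5.73%.

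Intronic peaks held the hexamer somewhat more often than 3′UTR peaks, and coding sequence peaks less often. ACTAAC occurred in 1925 of 17761 intronic peaks (10.8%), which gives an odds ratio of 0.782 for 3′UTR against intronic peaks (95% interval 0.656 to 0.931; adjusted p = 0.00921 in a two-sided exact test of Fisher, with Benjamini-Hochberg adjustment over 2 comparisons). It occurred in 28 of 526 coding sequence peaks (5.32%), an odds ratio of 1.66 (1.10 to 2.51; adjusted p = 0.0123, same exact test). Neither call held throughout. A logistic regression over these peaks, n = 19471 and n = 2236, with the width of the peak and its share of A and T gave odds ratios of 0.821 (adjusted p = 0.0712) and 1.24 (adjusted p = 0.340). The share of A and T had a median of 47.4% in 3′UTR peaks, 49.1% in intronic peaks and 42.0% in coding sequence peaks.

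Hexamers were more frequent near the centre of the peak than an even spread would give. Within 250 nt of the 1710 centres 493 ACTAAC hexamers were read on the strand of the peak. Of these, 122 (24.7%) began no more than 25 nt from the centre, against 10.2% under an even spread (p = 1.82e-20, exact binomial test, two-sided). On the opposite strand, 11 of 102 hexamers (10.8%) did so. Hexamers on the strand of the peak were not spread evenly around the centre: 96 began from 30 to 1 nt before it and 37 from 0 to 29 nt after it. Positions are those of the first base of the hexamer, and the authors' peak calling shifted and extended each read. The part of either in the uneven spread was not tested. A hexamer between neighbouring peaks was counted for each of them.

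**Figure D2:**
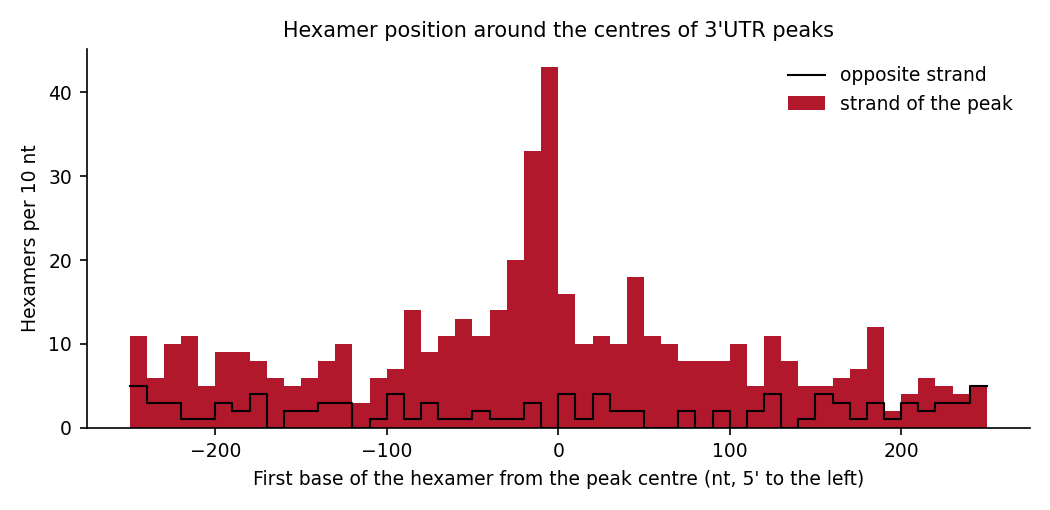
Number of ACTAAC hexamers per 10 nt (vertical axis) by the distance of their first base from the centre of a 3′UTR peak in nt (horizontal axis, 5′ to the left). Red bars show the strand of the peak and the black line the opposite strand. The highest bar, 43 hexamers, covers the 10 nt just before the centre, where the opposite strand has 0.

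Most copies of the hexamer in these 3′UTRs were not in a peak. The 3′UTRs of the genes with a peak held 717 ACTAAC sites in 3821480 nt, and 158 of the sites lay wholly inside a peak of any class (22.0%, interval 19.2 to 25.2%). The 3′UTR peaks covered 3.03% of those bases. TAAC or TAAT stood within 20 nt of 58 of the 158 sites in peaks (36.7%) and of 179 of the 559 other sites (32.0%). This difference did not pass the test (odds ratio 1.23, 95% interval 0.854 to 1.78, p = 0.292, Fisher's exact test, two-sided). Within 10 nt in place of 20 nt, the odds ratio was 1.67 (p = 0.0348, same exact test). The share of sites inside a peak varied between genes. All 3 sites in the DVL3 3′UTR, both sites in PEA15, both in BICD2 and all 3 in PRKCA lay in a peak, as did 4 of 6 in TASOR. In ATP2A2 1 of 6 sites did, in QKI 1 of 4, and in SRSF10, which had 2 peaks, 0 of 4.

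Peaks with several copies were rare. At least 2 copies of ACTAAC or ACTAAT were present in 20 of the 1710 peaks. A peak of ZNF213, which encodes a zinc finger protein, held 5 over 319 nt at a height of 64. Peaks of TTF2, a transcription termination factor, of PRKCA, the kinase PKC-alpha, of TASOR and of STAG2, a cohesin subunit, held 3 each, at heights of 68, 20, 698 and 111. The TTF2 and PRKCA sites are shown because their copies follow a repeated unit, with the most central copy in capitals.
TTF2 (chr1:117645343-117645372, plus strand): atccagtccaatACTAATccaatccaatac
PRKCA (chr17:64804347-64804376, plus strand): taacaccgcacaACTAACaactaacaccgc
The peak of PRKCA was low although it held 3 full hexamers, so the number of copies and the height did not go together in these 5 peaks.

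Taller peaks held the hexamer more often. With the peaks divided at the quartiles of height, ACTAAC was found in 4.51% of the 399 peaks of height 5 to 17, in 8.29% of those of 18 to 24, in 8.46% of those of 25 to 43 and in 13.1% of the 428 peaks of 44 or more. Their median width rose as well, from 53 to 57.5, 62 and 71 nt, and a wider peak has more room for a hexamer, whose part in the trend was not tested. Even among the tallest of these 4 groups, most peaks held neither ACTAAC nor the 12-letter run described next.

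A second sequence was shared by many tall 3′UTR peaks. A run of 12 letters was present in 98 peaks (5.73%, interval 4.73 to 6.94%) of 98 genes; 2 runs were tied at this count, which no other run exceeded, and the values below are for 1 of them. Its letters belong to the reverse complement of the Alu consensus, so that the mRNA carries an Alu element in antisense orientation; no repeat annotation was used here. The genes of the tallest such peaks differ in function. LETM1 is an inner mitochondrial membrane protein (height 324), CBX5 encodes the heterochromatin protein HP1-alpha (306), RPL27A a ribosomal protein (303), ULK2 an autophagy kinase (267), and ANO6 a membrane scramblase (244).

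The run was more frequent in 3′UTR peaks than in the other classes. It occurred in 1.55% of intronic peaks (odds ratio 3.88, 95% interval 3.06 to 4.91; adjusted p = 1.93e-23) and in 4 of 526 coding sequence peaks (0.760%; odds ratio 7.09, 2.74 to 18.3; adjusted p = 6.03e-08; both by the exact test used for the hexamer, adjusted over 2 comparisons). The run was chosen for being shared by so many of these same 3′UTR peaks, and the comparison was chosen after this was seen, so its p-values favour the 3′UTR and are a description only. In the windows of 60 nt over the 3′UTRs of all genes with a 3′UTR peak the run occurred in 0.468%. Peaks with the run had a median height of 59.5 in 3′UTRs and of 26 in introns, and their share rose from 1.5% in the lowest of the 4 height groups to 14.3% in the highest. Of the 98 peaks, 77 (78.6%) were the only 3′UTR peak of their gene, against 29.5% of the peaks without the run and 33.8% of those with ACTAAC. None of the 98 peaks held ACTAAC, but peaks with ACTAAC were not searched for other stretches of Alu elements. Alu copies resemble each other closely, and the authors had removed alignments of low mapping quality before peaks were called.

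**Figure D3:**
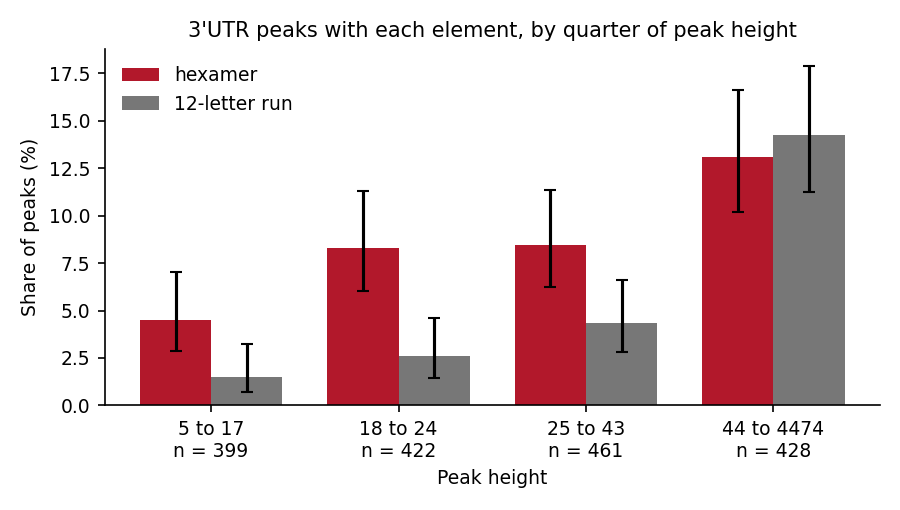
Share of 3′UTR peaks (%) that hold the ACTAAC hexamer (red) or the 12-letter run (grey) in 4 groups of peak height divided at its quartiles, with the range of heights and the number of peaks below each pair of bars. Error bars are 95% Wilson intervals. Both shares are lowest in the group of 5 to 17, at 4.51% and 1.5%, and highest in the group of 44 or more, at 13.1% and 14.3%.

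Elements rich in A and T were scarcer in the peaks than around them. The polyadenylation signal AATAAA was found in 1.70% of peaks, in 4.61% of their 5′ windows and in 5.18% of their 3′ windows. ATTTA, the core of AU-rich elements, was found in 2.51% of peaks, 11.2% of the 5′ windows and 8.5% of the 3′ windows. Peaks with a 5′ window had a median share of A and T of 46.8%, against 59.4% in those windows, and peaks with a 3′ window 46.5% against 54.5%; the part of this composition in the low shares was not tested. The study concerned QKI and the microRNAs miR-200c and miR-375, which is why their mature sequences, from RefSeq, are shown with the seed in capitals.
miR-200c-3p: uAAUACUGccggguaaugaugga
miR-375-3p: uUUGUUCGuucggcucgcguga
The match to the seed of miR-200c and miR-200b (CAGTATT) occurred in 2 of the 1710 peaks, in G2E3 (height 20) and in YIPF6 (height 25, with ACTAAC), and in 0.609% of the windows of 60 nt over the same genes' 3′UTRs. The match to the miR-375 seed (CGAACAA) occurred in 0 of 1710 peaks, which allows a share of up to 0.175%, and in 0.0286% of the windows. The match to the seed of miR-141 (CAGTGTT) occurred in 11 peaks (0.643%); on the 5′ side 1.19% of windows held it, and on the 3′ side 0.647%.

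Along the 3′UTR the peaks were spread broadly and thinned out at the 3′ end. On the longest annotated 3′UTR that held each centre (median length 3125 nt), the centres lay at a median of 1297 nt after the stop codon, with quartiles at 587 and 2522 nt. With each 3′UTR divided into 10 equal parts, the number of peaks ranged from 166 to 210 over parts 1 to 8, was 126 in part 9 and 85 in part 10. The side of the stop codon, up to the midpoint of the 3′UTR, held 54.6% of the peaks (interval 52.2 to 56.9%). On the shortest annotated 3′UTR this share was 49.8%, and without the peaks that also lay in an intron it was 51.0%. Within 200 nt of the stop codon lay 159 peaks (9.30%, interval 8.01 to 10.8%), where an even spread would put 9.12%, and within 200 nt of the annotated end 89 (5.20%, interval 4.25 to 6.36%). The ends are those of the annotation, not ends measured in these cells, and their part in the low counts of the last 2 parts was not tested.

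**Figure D4:**
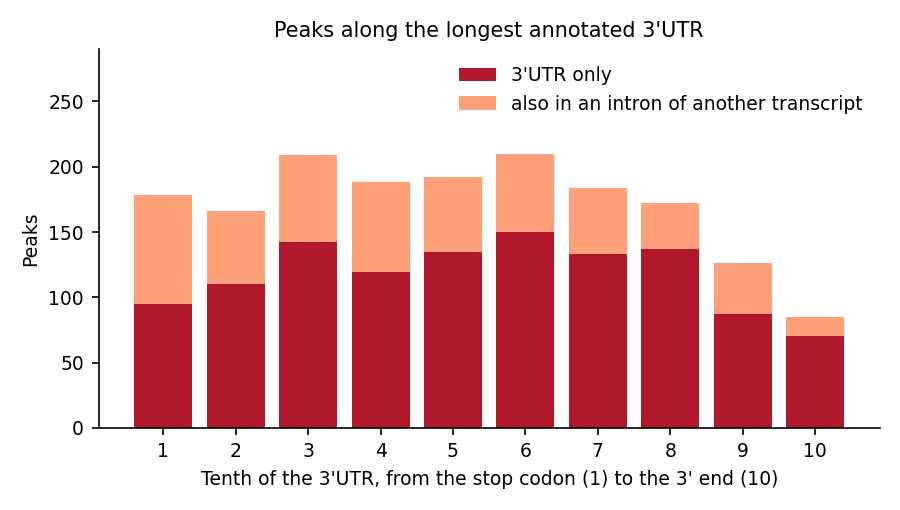
Number of 3′UTR peaks (vertical axis) in each of 10 equal parts of the longest annotated 3′UTR that holds the peak centre, from the stop codon (1) to the 3′ end (10) (horizontal axis). Dark bars are peaks in 3′UTR alone and light bars those that also lie in an intron of another coding transcript. Part 10 holds 85 peaks and part 6, the fullest, 210.

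The centres of 532 of the 1710 peaks (31.1%) also lay in an intron of another basic coding transcript on the same strand, as happens where a gene has alternative last exons, and a crosslinked RNA could then be either. These peaks held ACTAAC in 7.89% of cases and the other 1178 peaks in 9.00%, and the median heights were 24 and 25. The 12-letter run was in 2.44% of the former and 7.22% of the latter. Of the 10 equal parts of the 3′UTR, the first had 83 such peaks of 178, and the last 15 of 85. Nearly all peaks, 1560, lay in 3′UTRs made of a single exon part, and 37 lay in a part before the last.

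The 1710 peaks fell on 831 genes, which is 4.31% of the 19273 coding genes with an annotated 3′UTR, counted whether or not these cells express them. An intronic peak was present in 348 of the 831 (41.9%), against 20.1% of all these coding genes, and 76 had a peak in coding sequence. The remaining 467 (56.2%) had neither. A single 3′UTR peak was found in 551 genes, while 73 genes had 5 or more and together held 665 of the peaks (38.9%). Another peak lay within 100 nt of 49.8% of the 3′UTR peaks, and of 46.2% of the intronic peaks. A 3′UTR peak with ACTAAC was present in 139 genes (16.7%).

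The 3′UTR of DVL3, which encodes a dishevelled protein of Wnt signalling, held 3 of the 10 tallest peaks. Its 20 peaks covered much of its 2859 nt. From a first centre 235 nt after the stop codon their heights ran 232, 404, 582, 347, 131, 140, 100 and 37, and the remaining 12 peaks had heights of 6 to 90. The peaks of 582 and 347 had their centres 558 and 700 nt after the stop codon and each held an ACTAAC, and the third site lay in a peak of height 22. So the heights were greatest around the first pair of sites and low at the third. DVL3 had 3 intronic and 6 coding sequence peaks besides.

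TASOR, a subunit of the HUSH silencing complex, had 24 peaks in a 3′UTR with 6 ACTAAC sites, no intronic peak and 1 in coding sequence. A single peak of 698 stood out over the others, which ranged from 12 to 188. It lay 1936 nt after the stop codon and held the head to tail copies shown above. PEA15, a phosphoprotein that binds ERK, had 15 peaks in 1890 nt and no peak elsewhere in the gene. Its tallest, 235, lay 122 nt after the stop codon around a site, its second site was in a peak of 45 near the 3′ end, and the remaining 13 peaks, of 17 to 104, held none. SEPTIN2, a filament-forming GTPase, had 15 peaks of 8 to 104. A peak of 98 held ACTAAC and stood directly before the tallest.

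ATP2A2, the calcium pump SERCA2, had 16 peaks, the tallest, of 126 and 79, next to each other 3383 and 3512 nt after the stop codon. Of the 16 peaks, 14 also lay in an intron of another transcript, these tallest ones among them. The peak of 79 held the hexamer, and the 5 other sites of this 3′UTR were in no peak. PLEC, the cytolinker plectin, had 4 peaks, of 65, 192, 82 and 646 in the order of the mRNA, and the tallest, near the end of the 3′UTR, held 2 hexamers. ERH, a small protein tied to RNA metabolism, had a single peak, of 199, with ACTAAC.

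**Figure D5:**
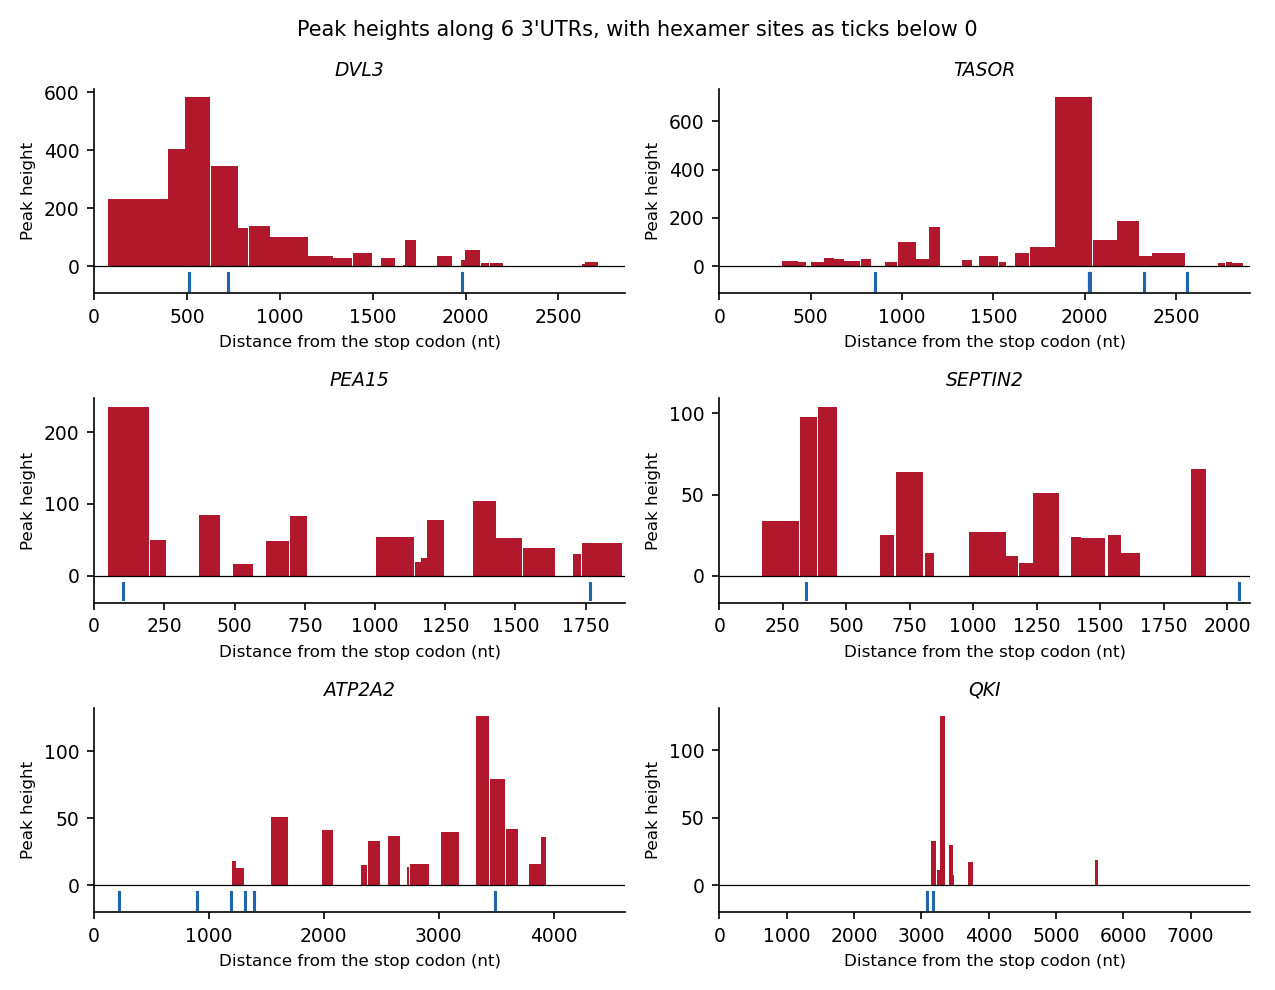
Height of each peak (vertical axis) by its place along the 3′UTR in nt from the stop codon (horizontal axis) for DVL3, TASOR, PEA15, SEPTIN2, ATP2A2 and QKI. The width of a bar is the width of the peak and blue ticks below 0 mark ACTAAC sites. The tallest peak of DVL3 (582), TASOR (698) and PEA15 (235) each lies over a tick, and for QKI 7 of its 9 peaks are drawn, those of the longest annotated 3′UTR.

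Like ATP2A2, several other genes with many peaks had alternative last exons, so that their peaks may be intronic. SEPTIN11 had the most peaks that fell on a single gene, 26 of 11 to 154. Of its peaks, 25 also lay in an intron of another transcript. Its tallest peak held ACTAAC. TPM1, which encodes a tropomyosin of actin filaments, had 18 peaks of 11 to 208 over several 3′UTRs, all of them also intronic, and none with ACTAAC. MICAL2, an enzyme that oxidises actin, had 14, all also intronic, and the tallest, of 185, held 2 hexamers. BICD2, an adaptor of the dynein motor, had 18, of which 14 were also intronic. MYL6, the essential light chain of myosin, had 9 peaks of 19 to 304, and GNAS, the alpha subunit of the stimulatory G protein, had 2, of 327 and 49, all also intronic. The tallest peak of GNAS held ACTAAT and no ACTAAC. A further 21 peaks, of 12 to 114, belonged to NOTCH2NLA, NOTCH2NLB and NOTCH2NLC, near-identical copies of part of NOTCH2 that share this location in the annotation, so the gene of origin is uncertain. Another 4 peaks, of 23 to 64, fell on these genes and NOTCH2NLR. A peak of 23 fell on NOTCH2NLA and NOTCH2NLB, and a peak of 16 on NOTCH2NLA alone. Counted together, the peaks that fell on NOTCH2NLA outnumbered those of SEPTIN11.

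A few of the tallest peaks lay over copies of small RNA genes. The tallest of all, of 4474, lay in the 3′UTR of NSA2, a ribosome assembly factor, over RNU6-1330P, a copy of the U6 spliceosomal RNA on the same strand; it held no ACTAAC. Its sequence around the summit is shown for the likeness to U6.
NSA2 (chr5:74075134-74075163, plus strand): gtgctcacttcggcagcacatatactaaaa
The peak of 384 in SIAE, a sialic acid esterase, lay opposite RNA5SP352, a pseudogene of 5S ribosomal RNA, and its ACTAAC belongs to that copy read in antisense. The peak of 84 in HINT3 lay opposite RNA5SP216 in the same way. In all, 4 of the 1710 peaks overlapped an annotated small RNA gene on either strand. Other tall peaks without the hexamer were those of CFLAR, an inhibitor of caspase-8 activation, at 1089, with 5 more peaks of 6 to 75, and of MYNN, a zinc finger protein, at 409.

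QKI itself had 9 peaks in its annotated 3′UTRs. The first 2, of 29 and 23, lay in a 3′UTR that another transcript reads as intron. The other 7 lay in the longest annotated 3′UTR, of 7882 nt, with heights of 33, 11, 125, 30, 8, 17 and 19 from its 5′ to its 3′ side. The first of these began 3145 nt after the stop codon. The paper mapped the 3′UTR of QKI-5 in cells that included mesHMLE, and its length there was shorter than that distance. Whether the RNA under these 7 peaks is part of a QKI mRNA in these cells was not tested. Of 4 ACTAAC sites in the 3′UTRs of the gene, 1 lay in a peak, that of height 33, while the tallest peak held neither ACTAAC nor ACTAAT, and the last, of 19, held ACTAAT. The ACTAAC site and the centre of the tallest peak are shown, the latter with no capitals since it has no hexamer.
QKI (chr6:163994909-163994938, plus strand): ttgagttactggACTAACcctgaagaacgt
QKI (chr6:163995047-163995076, plus strand): cggggcgggtgtgggtgtaggtgcagtaga
Of 12 mRNAs described elsewhere as QKI targets, 3 had a 3′UTR peak (25%, against 4.31% of all coding genes): QKI, HNRNPA1, whose 4 peaks of 10 to 36 held no hexamer, and the cyclin CCND1, with 1 of height 16 and no hexamer. MBP, CDKN1B, MAP1B, EGR2 and CTNNB1 were among the 9 without one.

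All gene lists, also that of described targets, were chosen with earlier results of these data known, so their shares are a description only. Of 52 genes for splicing factors and other RNA-binding proteins, 13 had a peak (25%, against 4.31% of all coding genes), and 4 of them had one with ACTAAC. In 8 of the 13 at least 1 peak lay outside all introns. HNRNPK, which binds C-rich RNA, had a single peak, and its height of 280 was the highest on this list. It lay 204 nt after the stop codon and held the only ACTAAC site of this 3′UTR. QKI was next at 125, followed by HNRNPU, a nuclear matrix protein with 10 peaks of 8 to 112. Lower peaks with the hexamer lay in HNRNPD, at 21, and in CPEB2, a regulator of translation, at 11. HNRNPA2B1 had 3 peaks of 33, 58 and 80, SRSF5 had 1 of 59, ZFP36L1, which promotes the decay of AU-rich mRNAs, had 2 of 54 and 20, and ELAVL1, which stabilises them, 2 of 31 and 15. PTBP2, TRA2B and SRSF10 had tallest peaks of 18, 16 and 36. Of the 52 genes, 33 had an intronic peak.

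The actin cytoskeleton and myosin list had a 3′UTR peak in 12 of 59 genes (20.3%, against 4.31% of all coding genes) and an intronic peak in 42, against 20.1% of all coding genes. In 7 of the 12 at least 1 3′UTR peak lay outside all introns. The paper had found actin regulation most enriched among the spliced genes that this HITS-CLIP marked as direct QKI targets. The counts of this list are therefore not independent of these peaks and are a description only. The tallest 3′UTR peaks of the list were those of TPM1 and MICAL2 above, of SPTAN1, the alpha chain of spectrin, at 160, and of PFN2, a profilin that binds actin monomers, at 134. SPTAN1 had 3 peaks, of 48, 160 and 46, side by side in a 3′UTR of 328 nt, and the middle one held the only ACTAAC site of that 3′UTR.
SPTAN1 (chr9:131395742-131395771, plus strand): aaatggtgcttcACTAACccgcttccggtc
PFN2 had 8 peaks, all of which also lay in introns, and none with a hexamer. SPTBN1, the beta chain of spectrin, had an ACTAAT in its peak of 90 and an ACTAAC in its peak of 19. SSH1, a phosphatase that activates cofilin, had 1 peak of 90, MYH9, a non-muscle myosin heavy chain, 1 of 23, and CFL1, cofilin, 1 of 16, none with either hexamer. TPM3 had 3 of 24 to 39, MYO1E 2 of 14 and 15, and MICAL3 1 of 21, beside 121 intronic peaks. The peak of MYH9 and all 3 of TPM3 also lay in introns.

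Genes of cell adhesion and matrix had a 3′UTR peak in 5 of 46 cases (10.9%, against 4.31% of all coding genes). In 3 of the 5 at least 1 peak lay outside all introns. SPARC, a secreted matrix protein, had 4 close together, of 121, 34, 197 and 189 from the stop codon onwards, without ACTAAC or ACTAAT. COL12A1, a collagen, had 7 of 12 to 47, of which the one nearest the stop codon, of 39, held ACTAAC. COL4A1, a collagen of basement membranes, had 1 of 44 with its only site, and COL4A2 1 of 16 without. CTNND1, the p120 catenin that stabilises cadherins, had 4 of 15 to 25, all also intronic, and that of 22 held 2 ACTAAC sites.
COL4A1 (chr13:110802553-110802582, minus strand): ggaatttgcgtaACTAACacaccctgcttc
CTNND1 (chr11:57583183-57583212, plus strand): gttactgatatgACTAACactaactgatct
The second has another copy directly after the capitals.

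The shares of genes with a 3′UTR peak in the next lists are likewise to be read against 4.31% of all coding genes. For TGF-β signalling and the transcription factors of the transition, 4 of 34 genes (11.8%) had a peak. They were SMAD2, a transducer of TGF-β signals, with 3 of 21 to 27 of which that of 27 held ACTAAC, its antagonists SKIL at 51, a peak with the 12-letter run, and SKI at 16, and the transcription factor ZEB2 at 26. Of 22 marker genes of the transition, 2 had a peak (9.09%), ZEB2 and SPARC, neither with ACTAAC, and CDH1, CDH2, VIM, FN1 and ZEB1 had none. Among 32 cell cycle regulators, 3 had a peak (9.38%): E2F1, with 3 of 16, 32 and 58 and no hexamer, the kinase CDK4, with 34 and 25, and CCND1. The peak of 34 in CDK4 held ACTAAC. Of 25 ribosomal protein genes, 3 had a peak (12%), RPL27A at 303 with the 12-letter run, RPL37 at 24 and RPL15 at 17, none with ACTAAC. None of the 26 immediate-early and stress transcription factors had one.

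Of 11 genes whose alternative exons the study examined by RT-PCR, 2 had a 3′UTR peak and 10 an intronic peak, where 4.31% and 20.1% of all coding genes did. The study had picked these exons partly because direct QKI-5 binding to them was predicted. The intronic count is therefore not independent of these peaks and is a description only. MPRIP, a myosin phosphatase partner at actin filaments, had 9 low 3′UTR peaks, of 8 to 32 and without the hexamer, beside 36 intronic peaks. NFYA, a subunit of the CCAAT-binding factor, had 1 of 23 and no intronic peak.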

How the data were processed

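Reads were trimmed with cutadapt 1.3 and aligned to hg19 with TopHat2 2.0.10 by the authors. They merged duplicates that shared a barcode, dropped poorly mapped reads, pooled the technical replicates, and ran MACS2 2.1.1.20160309 strand by strand with the size-matched input as control (versions from the submitters' processing notes). The deposited height is a signal of the authors' pooled data in whole numbers, with no value per library, and served only to rank and group peaks of this list. The deposited summits, starts and ends are positions on hg19. GRCh37 supplied the sequence, and the transcripts were those of GENCODE release 44 lifted to it, newer than the annotation used in mapping. The 18 mitochondrial peaks were not used.

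Classes were set by the centre of the peak, coding sequence first, then 3′UTR, then intron outside all basic exons. Motifs were searched as exact letters on the peak's strand. The letters of the 12-letter run are not reported here. Shares were compared with exact McNemar, Fisher or binomial tests, and odds ratios were computed after adding 0.5 to each cell; heights were described without a test. The members and gene lists were chosen with earlier results of these data known. In the ranking by number of peaks and in the counts for a named gene, peaks in 3′UTRs of several genes were kept apart. Named genes were those of the 10 tallest peaks, the 10 tallest with ACTAAC, the 10 with most peaks, the 5 peaks with most copies, QKI, the RT-PCR genes and list members with a peak; further names (the tallest peaks with the 12-letter run, HINT3, the seed matches, and list genes without a peak or with few bound sites) were chosen after their values were seen. The 12-letter run, the letter after the hexamer and every count without run peaks were also chosen after seeing the data. Alternatives varied height, placement, merging, motif and windows. Scripts were tested on simulated data. The tools were samtools 1.23.1, matplotlib 3.10.9, statsmodels 0.14.6 for the regression, pysam 0.24.0 for sequence, scipy 1.17.1 for tests, numpy 2.4.6 and Python 3.11.15.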

Additional observations from a re-analysis of the deposited data

How the results depend on the processing

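The comparison of ACTAAC in peaks and flanking windows kept its direction and a p under 0.05 under all 8 alternatives on each side, with ratios of 3.31 to 8.76 (5′) and 4.60 to 9.38 (3′), as did its position under all 4 (2.1 to 2.90 times an even spread). Limiting the list to peaks at or above its median height of 23 left 993 3′UTR peaks in 588 genes. The share with ACTAAC was 11.9% with merged peaks, 11.9% with 1 peak per gene and 11.9% with ACTAAT counted too. Against intronic peaks, the odds ratio was 0.820 with merged peaks (adjusted p = 0.0555, Fisher's exact test), 0.817 without peaks also in an intron (adjusted p = 0.0516) and 0.821 in the logistic regression. Against coding sequence peaks it was 1.11 for the taller peaks, of height 23 or more (adjusted p = 0.728, exact test), 1.31 with merged peaks (adjusted p = 0.183) and 1.24 in the logistic regression. The cause was not tested. The share of sites in a peak was 13.6% with ACTAAT counted too and 26.4% with sites within 20 nt of a peak. TAAC or TAAT within 10 nt of a site gave an odds ratio of 1.67. The share of peaks before the midpoint was 49.8% on the shortest 3′UTR and 51.0% without peaks also in an intron. No paired analysis was possible because the libraries with shared replicate numbers were pooled into a single list. Pooling also leaves the depth and the spread between libraries unknown.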

Other observations

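Other genes also carried long rows of 3′UTR peaks; the 5 given here were chosen after their values were seen, from genes with 10 or more peaks or with a peak over 200. NFAT5, a transcription factor of the response to osmotic stress, had 13 peaks of 11 to 114, and DDX17, an RNA helicase that takes part in splicing, had 12 of 11 to 138. Neither had ACTAAC in a peak, although the 3′UTRs held 2 sites and 1 site. ERCC1, a DNA repair protein, had 10 of 25 to 146, with its only ACTAAC site in a peak, and no intronic or coding sequence peak. CORO1C, a coronin that binds actin and was in none of the gene lists, had 9 peaks of 9 to 274 without ACTAAC or ACTAAT. KLC1, a light chain of the kinesin motor, had 12 of 11 to 229, and 2 more, of 75 and 92, that also fell on a second annotated gene. All of these also lay in an intron of another transcript.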
